A study of Homo sapiens with 27 samples.

Results

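Metallothioneins are small, cysteine-rich proteins that bind zinc and copper ions through their cysteine thiols. They buffer the free zinc of the cell, take up toxic metals such as cadmium, and are counted among the defences against oxidants. Their genes are known to be switched on by zinc and cadmium through the metal-sensing transcription factor MTF1, which binds metal response elements in their promoters, and MT2A is also known as a target of glucocorticoids. The 6 genes described here, MT1E, MT1F, MT1G, MT1M, MT1X and MT2A, were chosen by gene symbol from the 55882 rows of each count file. Their mRNA was read out in 27 poly(A) RNA-Seq libraries of U2OS, a cell line grown from a human osteosarcoma. 3 of the 6 (MT2A, MT1E and MT1X) held enough reads to be tested, and MT1F, MT1G and MT1M were at or near 0 in every library.

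All cells were U2OS cells stably transduced with lentiviral pLKO.1 vectors. The control line carried the blank pLKO.1 vector, although its samples are titled U2OS WT. The MMP2sh1 line carried an shRNA against MMP2 (labelled 23) and the MMP2sh2 line a different shRNA against MMP2 (labelled 26). MMP2 encodes the matrix metalloproteinase MMP-2, a zinc-dependent protease. Harvests were made below confluence (day −2, subconfluent), at confluence (day 0) and beyond it (day +2, overconfluent). There were 3 libraries for each of the 9 combinations of line and day, and the design asks how the mRNAs differ with MMP-2 depletion and with the density of the culture. The labels name 1 stable line for each vector, so a difference between lines cannot be told apart from a difference between the cells that were transduced and kept.

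Library totals on genes ran from 33580129 to 59374327 reads (median 40075178). Of 8 mesenchymal and osteoblast markers, 6 (VIM, COL1A1, SPARC, RUNX2, CDH2 and THY1) had a mean of 1 CPM or more (CPM is the read count scaled to a common library total), with a summed level of 3389 to 4419 CPM per library, while COL1A2 (mean 0.133 CPM) and TWIST1 (mean 0.0021 CPM) were near 0. The summed levels per library were 7.17 to 18.8 CPM for 5 epithelial markers, 0.155 to 1.68 CPM for 4 blood markers, 1.61 to 5.02 CPM for the endothelial markers and 3.05 to 22.6 CPM for 3 nerve and glia markers. MMP2 was lower in both shRNA lines at all 3 days, at 17.3% to 19.8% of the control mean in MMP2sh1 and at 48.6% to 61.9% in MMP2sh2, with no overlap between groups.

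The 6 genes lie in 1 cluster on chromosome 16 (GRCh37, the build the authors name hg19), within 75.6 kilobases from the start of MT2A to the end of MT1X, and 1.1 megabases beyond the end of MMP2. MT2A (ENSG00000125148) spans chr16:56642496-56643409, MT1E (ENSG00000169715) chr16:56659387-56661024, MT1M (ENSG00000205364) chr16:56666571-56667893, MT1F (ENSG00000198417) chr16:56691643-56694610 and MT1X (ENSG00000187193) chr16:56716382-56718108, all on the plus strand, and MT1G (ENSG00000125144) chr16:56700642-56701977 on the minus strand. Each has 3 exons in its principal transcript. Each coding sequence has 186 bases, and 20 of its 61 codons before the stop encode cysteine. Over the 15 pairs of members, 88.7% to 95.2% of the coding bases were identical. The coding sequences of the 3 members that were tested are given first, because counting reads on such like genes depends on where they differ. They were read from the GRCh37 transcripts, and capitals mark the bases that differ from MT2A at the same position.
MT2A: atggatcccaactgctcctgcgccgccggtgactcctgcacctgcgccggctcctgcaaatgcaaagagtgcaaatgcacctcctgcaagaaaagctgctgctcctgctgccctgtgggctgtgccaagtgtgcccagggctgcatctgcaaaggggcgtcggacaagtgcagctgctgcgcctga
MT1E: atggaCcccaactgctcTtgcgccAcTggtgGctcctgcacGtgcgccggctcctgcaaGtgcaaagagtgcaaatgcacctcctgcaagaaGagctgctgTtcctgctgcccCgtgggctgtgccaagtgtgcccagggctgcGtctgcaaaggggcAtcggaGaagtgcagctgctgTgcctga
MT1X: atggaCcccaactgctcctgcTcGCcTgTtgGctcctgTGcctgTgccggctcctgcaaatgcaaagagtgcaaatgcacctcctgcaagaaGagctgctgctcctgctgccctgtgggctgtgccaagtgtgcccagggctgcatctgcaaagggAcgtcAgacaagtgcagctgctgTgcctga

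MT1E and MT1X each differed from MT2A at 14 of the 186 positions, MT1F at 16, MT1G at 9 and MT1M at 19. No stretch of 100 bases of the principal transcript was shared with any other annotated gene for MT2A, MT1E, MT1F, MT1G or MT1M, whereas stretches of 50 bases were shared with other genes at 5.34% of the positions of MT1E, at 11.1% of those of MT2A and at 51% of those of MT1X, the last with MT2A, MT1A, MT1F, MT1G and MT1M among others. MT1X differs at 100 bases. In the annotation used here, 40.8% of its principal transcript lies over exons of a second gene, the long noncoding RNA ENSG00000259827, and 22% of its 100-base stretches were shared, with that gene alone. The authors' counting set aside reads that overlap exons of more than 1 gene, so part of the MT1X reads may not be in its count. Whether the authors' annotation held this second gene is not given in the sources used here, and levels of MT1X against the other members are uncertain for that reason.

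Promoter sequences of 2 members, MT2A and MT1X, were found in the RefSeq promoter table (GRCh38.p14), and MT1E, MT1F, MT1G and MT1M were not matched. They are shown because the metal response elements that MTF1 is known to bind lie in such windows. Each stretch is the 250 bases before the annotated start, on the plus strand. Capitals mark the core of the metal response element, searched as TGCACNC or TGCGCNC on both strands, and no 2 matches overlap.
MT2A, chr16:56608334-56608583: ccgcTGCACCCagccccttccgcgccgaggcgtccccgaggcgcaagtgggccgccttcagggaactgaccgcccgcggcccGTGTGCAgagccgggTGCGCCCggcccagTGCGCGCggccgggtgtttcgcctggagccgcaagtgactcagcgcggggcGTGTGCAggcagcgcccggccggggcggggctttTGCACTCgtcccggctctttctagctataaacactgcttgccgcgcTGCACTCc
MT1X, chr16:56682220-56682469: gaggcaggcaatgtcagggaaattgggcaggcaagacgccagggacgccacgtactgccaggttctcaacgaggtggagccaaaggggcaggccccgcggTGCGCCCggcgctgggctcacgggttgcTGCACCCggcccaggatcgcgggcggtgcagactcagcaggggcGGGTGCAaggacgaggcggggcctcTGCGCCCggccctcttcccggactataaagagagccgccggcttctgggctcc

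The MT2A window held 7 matches, 5 on the plus strand and 2 on the minus strand, and the MT1X window held 4, 3 on the plus strand and 1 on the minus strand. Of the 35116 promoters of the same length in the table, 24.8% held at least 1 match, 0.37% (130) held at least 4 and 0.0313% (11) held at least 7. Both windows also held 1 TATAAA (10.7% of all promoters held one) and 2 GGGCGG boxes on the strands together (42.6% held one). Outside the 6 members, the MT1H window held 8 matches (0.0171% of promoters held at least as many), and the MT1B and MT4 windows held 3 each (1.58%). In all 27 libraries together MT1H held 45 reads, MT1B 14 and MT4 0. All of these are matches of letters in a window and were not measured as binding sites.

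The members differed by orders of magnitude in read count. MT2A, the most widely expressed metallothionein, held 12617 to 38456 reads per library and 635487 in all 27. MT1E held 1586 to 14451 reads per library (163474 in all) and MT1X 94 to 354 (5108 in all). MT1M held 38 reads in all, with 0 to 5 per library, MT1G held 18 (0 to 4 per library) and MT1F held 2 (0 to 1 per library), and none of these 3 passed the filter on low counts in any comparison. A count of 3 reads, the upper limit that a count of 0 allows, corresponds to 0.0505 to 0.0893 CPM at these depths, and intervals of this kind cover counting error only.

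Of 20 rows of the family in the files, 14 held at least 10 reads over the 27 libraries. The 9 that are not members were the transcribed pseudogenes MT1JP (342 reads) and MT1L (204), the pseudogenes MT2P1 (285), MT1XP1 (74) and MT1P1 (26), and MT1H (45), MT1A (25), MT1HL1 (23) and MT1B (14). MT1CP had 2 reads and MT1DP, MT1P3, MT3 and MT4 had 0 in every library. MT3 is known as the brain metallothionein and MT4 as that of stratified epithelia. The counts of the pseudogenes are uncertain because they are near copies of the members, and because MT1L lies entirely over exons of another annotated gene and MT1JP over those of a second entry of the same name.

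**Figure D1:**
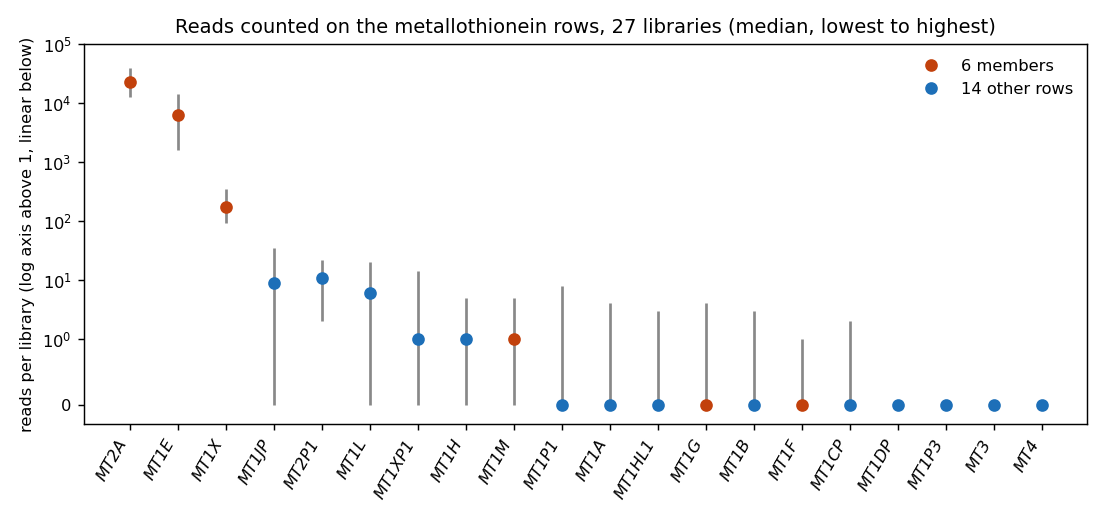
Reads per library counted on the 20 metallothionein rows, on a log axis above 1 and a linear axis below. Points are medians of the 27 libraries and lines run from the lowest to the highest library. MT2A, MT1E and MT1X lie apart from the other rows, whose highest library held 35 reads (MT1JP).

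Per length of the principal transcript (401 bases for MT2A, 704 for MT1E and 404 for MT1X), MT2A was the highest member in all 27 libraries, at 917 to 1903 CPM per kilobase, followed by MT1E at 57.6 to 390.4 and MT1X at 5.69 to 19. These ranges did not overlap. MT1M (0 to 0.27), MT1G (0 to 0.255) and MT1F (0 to 0.0667 CPM per kilobase) were at or near the limit that 3 reads set. Of the summed level per length of MT2A, MT1E and MT1X, MT2A made up 81.7% to 84.6% at days −2 and 0 and 92.9% to 95.6% at day +2. The rest was nearly all MT1E.

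The level of each tested member with the stage of culture was examined first in the control. From day −2 to day 0 MT2A and MT1E fell and MT1X rose. From day 0 to day +2 MT2A rose back to its first level, MT1E fell further and MT1X fell back. Over the whole expansion MT1E was therefore the only one of the 3 with a called change in the control.

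MT2A was at 666, 763 and 518 CPM in the 3 control libraries of day −2, at 456, 372 and 416 at day 0 and at 603, 676 and 691 at day +2. The lowest library of day −2 (replicate 3) was above the highest library of day 0, and days −2 and +2 overlapped. MT2A changed by a log2 fold change of −0.64 (standard error 0.08, adjusted p = 3.75e-07) from day −2 to day 0 and 0.69 (standard error 0.06, adjusted p = 1.67e-11) from day 0 to day +2, and 0.02 (standard error 0.08, adjusted p = 0.829) from day −2 to day +2. All adjusted p-values are those of the quasi-likelihood test of edgeR, adjusted by the Benjamini-Hochberg method across every gene tested, and a gene was called when its value was under 0.05. The p-values set each difference against the spread between these libraries. They do not cover the spread between separately transduced lines, of which there was 1 for each vector.

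MT1E was at 250.1, 275 and 183 CPM at day −2, at 145, 119.8 and 144 at day 0 and at 66.2, 65.1 and 63.4 at day +2 in the control. The 3 days did not overlap, and the mean of day +2 was 27.5% of that of day −2. The fall of MT1E was −0.79 on the log2 scale (standard error 0.09, adjusted p = 3.83e-08) in the first interval, −1.05 (standard error 0.06, adjusted p = 5.79e-15) in the second and −1.86 (standard error 0.09, adjusted p = 4.68e-16) over both.

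MT1X was at 4.6, 4.71 and 2.75 CPM at day −2, at 7.67, 5.24 and 6.02 at day 0 and at 4.68, 3.66 and 3.87 at day +2 in the control. Day 0 lay above both other days, which overlapped each other. Its change was 0.64 on the log2 scale (standard error 0.19, adjusted p = 0.00803) from day −2 to day 0 and −0.61 (standard error 0.17, adjusted p = 0.00459) from day 0 to day +2. Both calls rest on few libraries. Without control day 0 replicate 1 they were 0.48 (adjusted p = 0.092) and −0.45 (adjusted p = 0.0651), and without control day −2 replicate 3 the first was 0.44 (adjusted p = 0.0531).

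All 3 tested members were called from day −2 to day 0 in the control, where 35.5% of all genes tested were called, and all 3 from day 0 to day +2, where 41.4% were called. From day −2 to day +2, 1 of the 3 was called, beside 56.8% of all genes. The share of genes that changed with the stage was thus large in itself. The medians of the 3 members were −0.64, −0.61 and 0.01, beside medians of 0.02, 0.01 and 0.03 over all genes tested. In bulk RNA, fewer cells with a high level and less mRNA in each cell cannot be told apart. The marker lists also moved with the day: the summed nerve and glia markers were at 11.8 to 22.6 CPM at day −2 and 3.05 to 5.08 at day +2, with RBFOX3 as the only one over 1 CPM on average, and the epithelial markers at 7.17 to 11.7 and 13.7 to 18.8 CPM, and their part in these results was not tested.

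**Figure D2:**
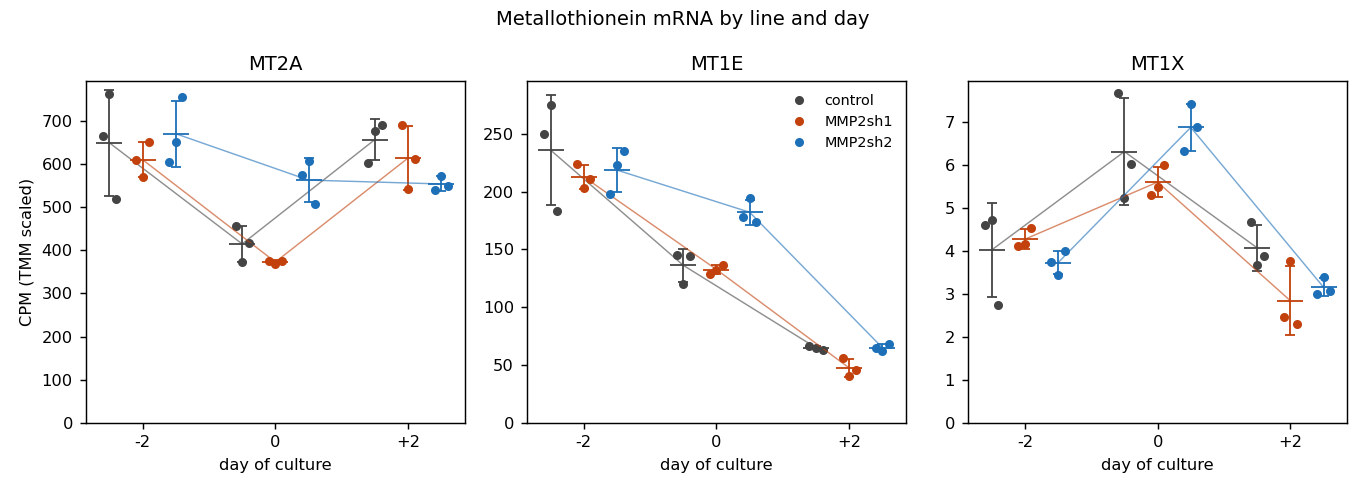
CPM (scaled with TMM factors) of MT2A, MT1E and MT1X by day of culture in the control, MMP2sh1 and MMP2sh2 lines. Points are libraries, bars give the mean and SD of 3, and lines join the means of a line of cells. At day 0 the MT2A libraries of the control and MMP2sh1 lie between 368 and 456 and those of MMP2sh2 between 507 and 606.

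In MMP2sh1 the course of MT2A was like that in the control. MT2A was at 610.0, 569 and 651 CPM at day −2, at 376, 368 and 375 at day 0 and at 690.0, 541 and 611 at day +2. The libraries of day 0 lay close together and below all others of the line. MT2A changed by −0.71 on the log2 scale (standard error 0.05, adjusted p = 8.17e-10), then 0.73 (standard error 0.06, adjusted p = 3.59e-10). Over both intervals its change was 0.01 (standard error 0.07, adjusted p = 0.952).

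MT1E was at 224, 204 and 211 CPM at day −2 in MMP2sh1, at 129, 132 and 137 at day 0 and at 56.1, 40.6 and 45.5 at day +2. The 3 days did not overlap. The log2 fold change over the whole expansion was −2.17 (standard error 0.09, adjusted p = 8.3e-16), to 22.3% of the mean of day −2.

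MT1X was at 4.11, 4.16 and 4.54 CPM at day −2 in MMP2sh1, at 5.31, 5.49 and 6 at day 0 and at 2.46, 3.76 and 2.3 at day +2. Day 0 was the highest of the 3 days in this line as well. The change from day −2 to day 0 (log2 fold change 0.39, standard error 0.16, adjusted p = 0.0614) was not called, and the fall in the second interval was (−0.97, standard error 0.19, adjusted p = 0.000235). Over both intervals MT1X fell (−0.59, standard error 0.22, adjusted p = 0.0275), a call that was lost without MMP2sh1 day −2 replicate 3 (−0.55, adjusted p = 0.0656), day +2 replicate 1 (−0.50, adjusted p = 0.0914) or day +2 replicate 3 (−0.46, adjusted p = 0.12).

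In MMP2sh1, 2 of the 3 tested members were called from day −2 to day 0 (32.7% of all genes), 3 from day 0 to day +2 (46.0% of all genes) and 2 from day −2 to day +2 (54.9% of all genes).

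In MMP2sh2 the course of MT2A was different. It was at 605, 651 and 755 CPM at day −2, at 575, 606 and 507 at day 0 and at 539, 573 and 549 at day +2. The libraries of day 0 overlapped those of both other days. The log2 fold change was −0.26 (standard error 0.06, adjusted p = 0.00341) in the first interval and 0.00 (standard error 0.05, adjusted p = 0.98) in the second. Day +2 was below day −2 by a log2 fold change of −0.27 (standard error 0.06, adjusted p = 0.000448), with no overlap. Without MMP2sh2 day −2 replicate 3, the highest library, the first value was −0.17 and was still called (adjusted p = 0.013), and DESeq2 did not call it (−0.27, adjusted p = 0.0868).

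MT1E was at 198, 223.4 and 235 CPM at day −2 in MMP2sh2, at 178, 195 and 174 at day 0 and at 65.1, 61.8 and 67.8 at day +2. Days did not overlap, and most of the fall lay in the second interval. On the log2 scale MT1E changed by −0.27 (standard error 0.06, adjusted p = 0.00106) in the first interval and −1.46 (standard error 0.06, adjusted p = 1.95e-18) in the second, and −1.75 (standard error 0.07, adjusted p = 3.77e-20) over both.

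MT1X was at 3.73, 3.45 and 3.99 CPM at day −2 in MMP2sh2, at 6.32, 7.41 and 6.89 at day 0 and at 3, 3.39 and 3.07 at day +2. It rose to day 0 (log2 fold change 0.88, standard error 0.16, adjusted p = 0.000135) and fell to day +2 (−1.10, standard error 0.16, adjusted p = 2.22e-06), and the change over both was not called (−0.23, standard error 0.20, adjusted p = 0.341). In this line 3 of the 3 tested members were called from day −2 to day 0 (30.3% of all genes), 2 from day 0 to day +2 (45.5% of all genes) and 2 from day −2 to day +2 (54.7% of all genes).

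Whether the stage changes differed between the lines was tested with the interaction of line and day. The interactions from day −2 to day +2 were planned, and those from or to day 0 were added after seeing the data. From day 0 to day +2 the change of MT2A in MMP2sh2 was lower than that in the control by 0.68 on the log2 scale (estimate −0.68, standard error 0.08, adjusted p = 1.24e-07), and it stayed called in each of the 12 fits that left out a library. The change of MT1E in the same interval was also lower in both shRNA lines, set against the same control libraries, but through different days. Against the control, MT1E in MMP2sh2 was at 0.40 at day 0 and at −0.0006 at day +2. In MMP2sh1 MT1E was at −0.04 at day 0 and at −0.46 at day +2. The interaction estimate of MT1E was −0.41 in MMP2sh2 (standard error 0.09, adjusted p = 0.00197) and −0.41 in MMP2sh1 (standard error 0.11, adjusted p = 0.019). Of the 3 tested members, 2 were called in MMP2sh2 and 1 in MMP2sh1, where 4.76% and 4.66% of all genes were called.

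From day −2 to day 0 the change of MT1E was higher in MMP2sh2 than in the control (estimate 0.53, standard error 0.12, adjusted p = 0.00643), and that of MT2A was 0.40 (standard error 0.12, adjusted p = 0.051). 1 of the 3 was called, beside 3.69% of all genes. In MMP2sh1 no member was called in this interval (1.35% of all genes), with estimates from −0.25 for MT1X to 0.11 for MT1E and adjusted p-values of 0.775 to 0.886. None of the 3 passed at an unadjusted p under 0.05 there, and DESeq2 called none. Over the whole expansion neither shRNA line had a called member (7.40% and 4.98% of all genes). At an unadjusted p under 0.05, 1 of the 3 passed in each line (MT1E in MMP2sh1, adjusted p = 0.207, and MT2A in MMP2sh2, adjusted p = 0.143), and DESeq2 called none.

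The interaction calls of MT1E were the less stable ones. That of MMP2sh2 from day −2 to day 0 was lost without control day −2 replicate 1 (0.46, adjusted p = 0.0536), control day 0 replicate 2 (0.42, adjusted p = 0.0575) or MMP2sh2 day 0 replicate 2 (0.45, adjusted p = 0.0546). That of MMP2sh1 from day 0 to day +2 was lost without control day 0 replicate 2 (−0.33, adjusted p = 0.0794), MMP2sh1 day 0 replicate 3 (−0.40, adjusted p = 0.0507) or MMP2sh1 day +2 replicate 2 (−0.32, adjusted p = 0.0905). MT2A in MMP2sh2 from day −2 to day 0 became called without control day −2 replicate 3 (0.50, adjusted p = 0.00268) or MMP2sh2 day −2 replicate 3 (0.49, adjusted p = 0.00864). Over the whole expansion MT1E became called in MMP2sh1 without MMP2sh1 day +2 replicate 1 (−0.44, adjusted p = 0.0323), and MT2A in MMP2sh2 without control day −2 replicate 2 (−0.42, adjusted p = 0.0129). DESeq2 did not call MT1E in MMP2sh2 in the first interval (0.52, adjusted p = 0.125) or in MMP2sh1 in the second (−0.42, adjusted p = 0.0909), and with all 27 libraries in 1 fit the second-interval values of MT1E were −0.41 in MMP2sh1 (adjusted p = 0.0662) and −0.42 in MMP2sh2 (adjusted p = 0.0594). The directions were the same in each of these fits.

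The lines were next compared at each day. At day −2 none of the 3 tested members was called in either shRNA line, where 11.6% of all genes were called in MMP2sh1 and 11.0% in MMP2sh2. At an unadjusted threshold of 0.05 none passed either, and DESeq2 called none. The log2 fold changes in MMP2sh1 were −0.09 for MT2A (standard error 0.08), −0.15 for MT1E (standard error 0.09) and 0.08 for MT1X (standard error 0.20), and those in MMP2sh2 were 0.04 (standard error 0.09), −0.12 (standard error 0.09) and −0.13 (standard error 0.20).

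The values depend on single control libraries, and the calls on 1 of them. Replicate 3 of the control at day −2 had the lowest level of all 3 members in its group (518 CPM for MT2A, 183 for MT1E and 2.75 for MT1X) and the smallest total of the 3 (35135375 reads). It also had the highest share of reads without a unique alignment among all 27 libraries (3.76%). Without it MT1E was lower in MMP2sh1 (−0.31, adjusted p = 0.00267) and in MMP2sh2 (−0.26, adjusted p = 0.0224), and MT2A was lower in MMP2sh1 (−0.23, adjusted p = 0.0263). What set replicate 3 apart was not tested. Leaving out replicate 2, the highest of the group in all 3 members, moved the values the other way. MT2A in MMP2sh1 was then at 0.04 and MT1E in MMP2sh2 at 0.008, and neither was called.

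At day 0 the shRNA lines differed from each other. In MMP2sh2, MT2A and MT1E were higher than in the control. The 575, 606 and 507 CPM of MT2A lay above the 456, 372 and 416 of the control, and the 178, 195 and 174 CPM of MT1E above the 145, 119.8 and 144 of the control. The log2 fold change was 0.43 for MT2A (standard error 0.05, adjusted p = 2.74e-07) and 0.40 for MT1E (standard error 0.05, adjusted p = 1.56e-06), to 136% and 134% of the control mean. MT1X was at 0.11 (standard error 0.15, adjusted p = 0.724). 2 of the 3 tested members were called, beside 12.9% of all genes.

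In MMP2sh1 at day 0 MT2A was lower, at 89.9% of the control mean (log2 fold change −0.16, standard error 0.05, adjusted p = 0.0167), with groups that overlapped, and MT1E (−0.04, standard error 0.05, adjusted p = 0.675) and MT1X (−0.18, standard error 0.15, adjusted p = 0.493) were not called. 1 of the 3 was called, beside 16.8% of all genes. The call of MT2A was lost without control day 0 replicate 1 (−0.08, adjusted p = 0.282), MMP2sh1 day 0 replicate 2 (−0.14, adjusted p = 0.11) or MMP2sh1 day 0 replicate 3 (−0.16, adjusted p = 0.0549), and with all 27 libraries in 1 fit (−0.15, adjusted p = 0.301).

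The direct comparison of MMP2sh1 with MMP2sh2 at day 0 gave −0.58 for MT2A (standard error 0.04, adjusted p = 1.04e-12), −0.44 for MT1E (standard error 0.04, adjusted p = 2.16e-09) and −0.29 for MT1X (standard error 0.14, adjusted p = 0.168). 2 of the 3 were called, beside 18.5% of all genes, and both calls held without any one of the 6 libraries. MMP2 itself was lower in MMP2sh1 than in MMP2sh2 by a log2 fold change of −1.41 at this day. The mean of MMP2 at day 0 was 325 CPM in the control, 158 in MMP2sh2 and 59.1 in MMP2sh1, while the means of MT2A and MT1E were highest in MMP2sh2. Whether the levels of MMP2 and of these members are related was not tested.

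At day +2 a different member moved in each line. MT1E was lower in MMP2sh1, where its 56.1, 40.6 and 45.5 CPM lay below the 66.2, 65.1 and 63.4 of the control (log2 fold change −0.46, standard error 0.08, adjusted p = 0.000123, at 73% of the control mean). In MMP2sh2 it was level with the control (log2 fold change 0.00, standard error 0.06, adjusted p = 0.997), and the difference between the shRNA lines was −0.46 (standard error 0.09, adjusted p = 0.000894). MT2A was lower in MMP2sh2, where its 539, 573 and 549 CPM lay below the 603, 676 and 691 of the control (−0.25, standard error 0.05, adjusted p = 0.000639, at 84.3% of the control mean), and this call was lost with all 27 libraries in 1 fit (−0.25, adjusted p = 0.0995).

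In MMP2sh1 at day +2 MT2A was at −0.10 against the control (standard error 0.06, adjusted p = 0.339) and against MMP2sh2 at 0.15 (standard error 0.06, adjusted p = 0.173). So a difference between the shRNA lines in MT2A was not called at this day. MT1X was at −0.52 in MMP2sh1 (standard error 0.21, adjusted p = 0.107) and at −0.37 in MMP2sh2 (standard error 0.19, adjusted p = 0.318) against the control, and at −0.15 (standard error 0.22, adjusted p = 0.769) between the shRNA lines. 1 of the 3 tested members was called in each line (14.8% of all genes in MMP2sh1 and 6.32% in MMP2sh2), and 1 of the 3 between the shRNA lines (7.86% of all genes).

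Single libraries of MMP2sh1 set some of these values. Without MMP2sh1 day +2 replicate 1, the highest in MT2A, MT2A was called as lower than in the control (−0.19, adjusted p = 0.0132). Without replicate 2, MT1X was called as lower than in the control (−0.78, adjusted p = 0.0241) and MT2A as higher than in MMP2sh2 (0.23, adjusted p = 0.0272). Between the shRNA lines at day −2 no member was called (10.7% of all genes), with values of −0.14 for MT2A, −0.04 for MT1E and 0.20 for MT1X and, at an unadjusted threshold of 0.05, none passed. One set of control libraries served both shRNA comparisons at a day, which are therefore not independent of each other.

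**Figure D3:**
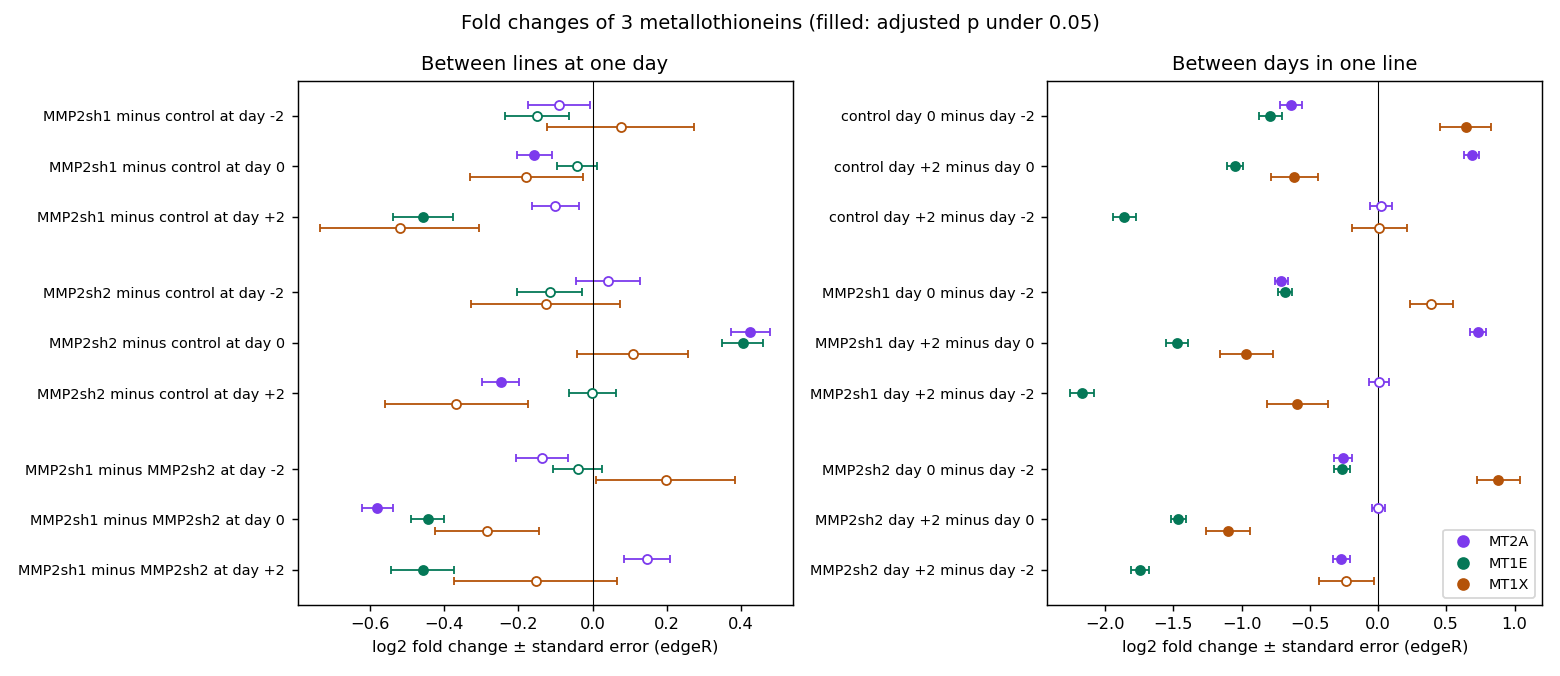
Log2 fold changes (horizontal axis, with standard errors) of MT2A, MT1E and MT1X between lines at one day (left) and between days in one line (right), from 3 libraries against 3. Filled points had an adjusted p under 0.05. MT2A and MT1E were higher in MMP2sh2 than in the control at day 0, by 0.43 and 0.40, and MT1E fell in every line with the day of culture.

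The order of the 9 groups differed between the members. For MT2A the highest mean was MMP2sh2 at day −2 (670.2 ± 76.8 CPM, SD, n = 3) and the lowest was MMP2sh1 at day 0 (373 ± 4.33). The first 7 groups overlapped each with the next, down to MMP2sh2 at day +2 (554 ± 17.3), and the control (415 ± 42.1) and MMP2sh1 at day 0 lay apart below them and overlapped each other. For MT1E the order followed the day. The means of day −2 (213 to 236 CPM) were above those of day 0 (133 to 182), although the lowest control library of day −2 (183) was below the highest MMP2sh2 library of day 0 (195). All libraries of day 0 lay above those of day +2 (means of 47.4 to 64.9), with MMP2sh2 at day 0 and MMP2sh1 at day +2 apart from the groups of their own day.

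For MT1X the 3 groups of day 0 came first, from 6.87 ± 0.544 CPM in MMP2sh2 to 5.6 ± 0.358 in MMP2sh1, and MMP2sh1 at day +2 came last (2.84 ± 0.801). The groups of days −2 and +2 were mixed in order, and most neighbours overlapped. Over the 9 group means of log2 CPM, Pearson's r was −0.00 between MT2A and MT1E, −0.59 between MT2A and MT1X and 0.51 between MT1E and MT1X. These values describe 9 groups that share lines and days, and are given without a test.

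The balance of MT2A and MT1E changed with the last stage. The ratio of their levels per length was 4.67 to 5.64 in the 9 libraries of day −2 and 4.81 to 5.67 in those of day 0, ranges that overlapped, although both mRNAs fell in that interval. At day +2 it was 16 to 19.1 in the control, 21.6 to 23.6 in MMP2sh1 and 14.2 to 16.3 in MMP2sh2. All 9 libraries of day +2 lay above all 18 others. MMP2sh1 lay above the control at this day, with means of 22.9 ± 1.1 and 17.8 ± 1.62 (SD, n = 3; exact two-sided permutation test, p = 0.1, the smallest that 3 against 3 allow), and MMP2sh2 (15 ± 1.1) overlapped the control (exact permutation p = 0.2). MMP2sh1 also lay above MMP2sh2 at day +2 (exact permutation p = 0.1). At day −2 MMP2sh2 lay above the control, with means of 5.37 and 4.84 and no overlap (exact permutation p = 0.1), the opposite direction to its mean at day +2. In the other 5 of the 9 comparisons of the ratio the groups overlapped (exact permutation p = 0.2 to 0.7), and none of the 9 can go below 0.1 before adjustment. The ratio was not among the planned tests.

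**Figure D4:**
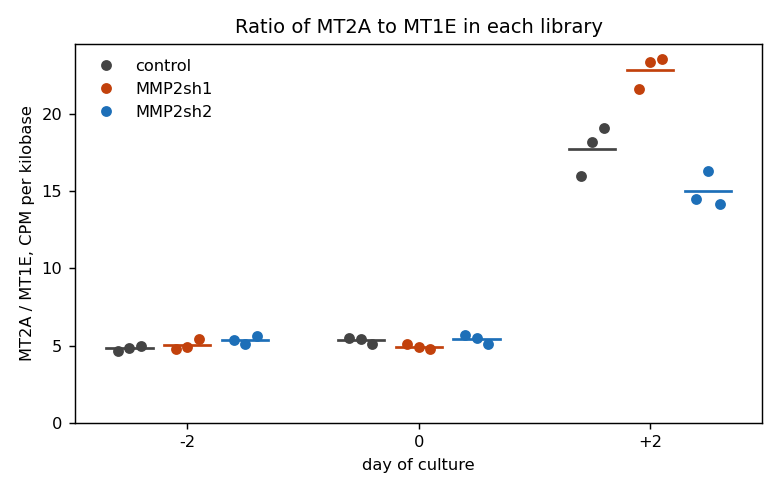
Ratio of MT2A to MT1E, both in CPM per kilobase of transcript, in each library by day of culture. Points are libraries and lines are means of 3. The 9 libraries of day +2 lie between 14.2 and 23.6, and the other 18 between 4.67 and 5.67.

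Among the other rows of the family, MT1JP passed the filter on low counts in 15 of the 24 comparisons, MT1L in 9 and MT2P1 in 18. They pass it only through the groups where they are high, so their reads are given without a test. MT1JP held between 12 and 35 reads per library at day −2, between 5 and 21 at day 0 and between 0 and 9 at day +2. MT1L held between 8 and 20, 2 and 11, and 0 and 7 reads at the 3 days. MT2P1 held between 2 and 22 reads in the 27 libraries.

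The genes that sense and move zinc were taken as a list of 25, of which 21 to 23 were tested in each comparison. MTF1, the metal-responsive factor, was at 31.7 CPM on average (27.7 to 37.3 over the 27 libraries) and was not called in any of the 6 comparisons with control, where its log2 fold changes ran from −0.15 to 0.10. In the control MTF1 was lower at day +2 than at day −2 (−0.25, standard error 0.07, adjusted p = 0.00493). SLC30A1, the zinc exporter of the plasma membrane and like the metallothioneins a known MTF1 target, was not called between the shRNA lines and the control either (−0.15 to 0.18). In the control it fell from 64.3 ± 3.57 CPM at day −2 to 42.6 ± 1.24 at day 0 (−0.59, standard error 0.06, adjusted p = 9.01e-09) and was at 38.4 ± 3.03 at day +2 (−0.13 from day 0, adjusted p = 0.141).

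SLC30A1 thus fell from day −2 to day 0 as MT2A and MT1E did, and had no called rise to day +2 as MT2A had. In MMP2sh2 at day 0 MT2A and MT1E were higher than in the control. There SLC30A1 was at −0.05 (standard error 0.07, adjusted p = 0.718) and MTF1 at 0.08 (standard error 0.07, adjusted p = 0.544). Whether MTF1 had a part in any of these changes was not tested.

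Of the list, 2 rose and 0 fell in MMP2sh1 at day −2 (median −0.00 over all genes and 0.02 over the list), 4 rose and 1 fell at day 0, and 4 rose and 1 fell at day +2. In MMP2sh2, 2 rose and 4 fell at day −2, 1 rose and 3 fell at day 0 and 0 rose and 1 fell at day +2. The share of the list called at days −2, 0 and +2 was 9.52%, 22.7% and 22.7% in MMP2sh1, beside 11.6%, 16.8% and 14.8% of all genes, and 28.6%, 18.2% and 4.55% in MMP2sh2, beside 11.0%, 12.9% and 6.32% of all genes. It lay below the share of all genes in 2 of the 6, with list medians of −0.02 to 0.09 beside 0.00 over all genes. SLC39A11, a zinc importer, was the gene called most often (4 of 6), and in opposite directions. It was higher in MMP2sh1 at day 0 (0.49, standard error 0.07, adjusted p = 9.95e-07) and day +2 (0.80, standard error 0.08, adjusted p = 4.45e-09) and lower in MMP2sh2 at day −2 (−0.47, standard error 0.08, adjusted p = 0.000523) and day 0 (−0.46, standard error 0.08, adjusted p = 4.84e-05).

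SLC39A14, an importer of zinc, iron and manganese, was higher in 3 of the 6, by 0.20 and 0.27 in MMP2sh1 at days 0 and +2 and by 0.21 in MMP2sh2 at day 0. SLC39A13, a zinc transporter of the secretory pathway, was higher in both lines at day −2 (0.32 and 0.35). SLC30A3, a zinc transporter of vesicles, was lower in both at day +2 (−0.40 and −0.30). In the control from day −2 to day +2, 3 of the 21 tested genes of the list rose and 9 fell, which is 57.1% of them beside 56.8% of all genes. SLC39A14 was among those that fell (−0.95, standard error 0.05, adjusted p = 2.48e-15).

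**Figure D5:**
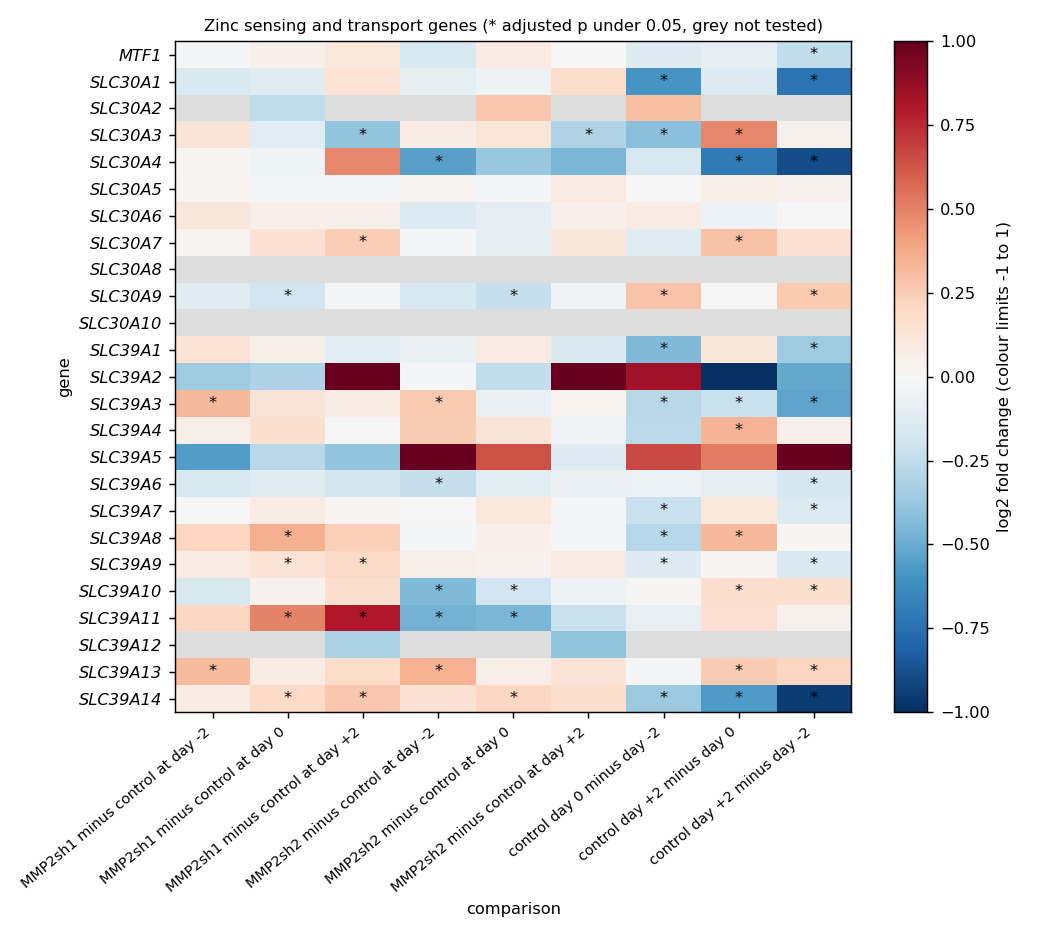
Log2 fold changes of the 25 zinc sensing and transport genes (rows) in 9 comparisons (columns), as colour between −1 and 1. Asterisks mark an adjusted p under 0.05 and grey marks genes that were not tested. SLC39A11 is marked as higher in MMP2sh1 at days 0 and +2 and as lower in MMP2sh2 at days −2 and 0, and SLC30A1 is marked in the control columns that begin at day −2.

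The other lists hold genes of stimuli known to act on metallothioneins. Of 12 copper genes, 10 or 11 were tested, and 0 to 4 were called in each comparison with control, with medians of −0.11 to 0.09. That was 18.2%, 30% and 20% of those tested in MMP2sh1 at days −2, 0 and +2, beside 11.6%, 16.8% and 14.8% of all genes, and 9.09%, 40% and 0% in MMP2sh2, beside 11.0%, 12.9% and 6.32%. SOD1, the copper-zinc superoxide dismutase, was called in 4 of the 6, with 0.14 (MMP2sh1) and 0.20 (MMP2sh2) at day 0, −0.16 in MMP2sh2 at day −2 and −0.20 in MMP2sh1 at day +2. CCS, which loads copper onto SOD1, was lower in MMP2sh1 at day 0 (−0.36) and day +2 (−0.35).

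All 10 heat shock and metal stress genes were tested. In MMP2sh1, 1 rose and 4 fell at day −2, 2 rose and 4 fell at day 0, and 0 rose and 4 fell at day +2, and in MMP2sh2, 0 rose and 3 fell, 3 rose and 0 fell, and 0 rose and 1 fell (medians −0.09 to 0.04). The share called was 50%, 60% and 40% in MMP2sh1, beside 11.6%, 16.8% and 14.8% of all genes, and 30%, 30% and 10% in MMP2sh2, beside 11.0%, 12.9% and 6.32%. HMOX1, the heme oxygenase that metals and oxidants are known to induce, was lower in MMP2sh1 at all 3 days (−0.22, −0.56 and −0.67) and not called in MMP2sh2 (0.14, 0.04 and −0.16). HSPA1B, an inducible chaperone of the HSP70 family, was lower in MMP2sh1 at all 3 days (−0.28, −0.26 and −0.41) and in MMP2sh2 at day +2 (−0.36). HSPA1B has a near-identical copy, HSPA1A, so the split of reads between them is uncertain.

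Of 9 NRF2 targets and regulators of the response to oxidants, all of them tested, 6 fell and 0 rose in MMP2sh1 at day −2 (median −0.23, beside −0.00 over all genes), 1 rose and 1 fell at day 0, and 1 rose and 2 fell at day +2. In MMP2sh2 the counts were 2 risen and 3 fallen, 3 risen and 1 fallen, and 1 risen and 0 fallen (medians −0.03, 0.06 and 0.04). These were 66.7%, 22.2% and 33.3% of the list in MMP2sh1, where 11.6%, 16.8% and 14.8% of all genes were called, and 55.6%, 44.4% and 11.1% in MMP2sh2, where 11.0%, 12.9% and 6.32% were. SLC7A11, the cystine importer that supplies glutathione synthesis, was called in all 6, lower in both lines at day −2 (−0.52 and −0.29), higher in MMP2sh1 and lower in MMP2sh2 at day 0 (0.38 and −0.45) and higher in both at day +2 (1.15 and 0.58).

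Of 10 genes of the glucocorticoid response, 9 were tested. In MMP2sh1, 2 fell at day −2, 1 rose and 5 fell at day 0, and 6 fell at day +2 (medians −0.19, −0.38 and −0.31). In MMP2sh2, 3 rose at day −2, 1 rose and 2 fell at day 0, and 2 fell at day +2 (medians 0.08, −0.11 and −0.16). The medians over all genes were 0.00 at each day in both lines. Of the genes tested, 22.2%, 66.7% and 66.7% were called in MMP2sh1 (11.6%, 16.8% and 14.8% of all genes) and 33.3%, 33.3% and 22.2% in MMP2sh2 (11.0%, 12.9% and 6.32% of all genes). SGK1, a kinase that glucocorticoids are known to induce, was lower at day 0 in MMP2sh1 (−1.25, standard error 0.09, adjusted p = 1.1e-12) and in MMP2sh2 (−0.82, standard error 0.08, adjusted p = 5.14e-09), and lower at day +2 in both (−1.39 and −0.88). At day −2 SGK1 was higher in MMP2sh2 (0.33, standard error 0.09, adjusted p = 0.0228) and was not called in MMP2sh1 (−0.17, adjusted p = 0.306). DUSP1, a phosphatase of MAP kinases, was higher at day 0 in both lines (0.20 and 0.59) and lower in MMP2sh1 at days −2 and +2 (−0.25 and −0.71). In MMP2sh2 it was higher at day −2 (0.21, adjusted p = 0.0374) and not called at day +2 (−0.25, adjusted p = 0.212).

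The genes with the pattern most like that of MT2A and MT1E were sought over the 9 group means of log2 CPM, among 15133 genes with a mean of at least 1 CPM. For MT2A they were CYB5R1 (Pearson's r 0.96), OGFR (0.95), EIF5A2 (0.95), SQSTM1 (0.95) and SUPT6H (0.94), and 31 genes had an r over 0.9. For MT1E they were CITED2 (0.995), RRAS2 (0.99), ERBB3 (0.99), CSTF2 (0.99) and QDPR (0.99), and 1935 genes had an r over 0.9. A steady fall over the 3 days was thus shared by many genes, and the pattern of MT2A by few. These are descriptions over 9 points that share lines, days and library depth.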

How the data were processed

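Poly(A) RNA-Seq of 27 U2OS libraries (3 lines, 3 days, 3 biological replicates each) was used. Per the labels and methods, the authors' pipeline was Trim Galore 0.6.0, STAR 2.7.3a on hg19, removal of low-quality alignments, and HTSeq 2.0.0 on exons (minimum quality 10, unstranded, union mode). The files as deposited hold raw read counts, 1 row per symbol. Summary lines that name no gene were 16.8% to 19.1% of each total and were left out.

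Tests ran in R 4.3.3 with edgeR 4.0.16 on the 6 libraries of a comparison (12 for an interaction). TMM scaling and filterByExpr (10 counts, 15 in total) came first. Quasi-likelihood p-values were adjusted over all genes tested by the Benjamini-Hochberg method, and a gene was called at an adjusted p under 0.05. The standard error is the absolute log2 fold change over the square root of F. CPM used TMM factors of all 27 libraries. Alternatives were DESeq2 1.42.0 (the authors' tool), median-of-ratios scaling, 2 other filters, 1 fit of 27 libraries, the replicate number as a block and each library left out in turn.

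The members, the gene lists and the rule for named genes were chosen with earlier results of these data known. The rule named the 6 members, the family rows with 10 or more reads, MMP2, MTF1, SLC30A1, the 4 further zinc genes and the 2 genes of each other list called most often against the control, and the 5 genes most like MT2A and MT1E. One gene that the rule named is not reported here. The 4 interactions from or to day 0 were added after seeing the data. The shares per length, the ratio of MT2A to MT1E and its permutation tests were not in the plan either. Libraries of one group were all distinct (chi-square per degree of freedom 4.74 to 24.6 over 27 pairs). Positions are from GENCODE on GRCh37. Protein sequences were not used here.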

Additional observations from a re-analysis of the deposited data

Results flagged for a closer look

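The following results differed between groups by a test of the difference itself. Between the 2 shRNA lines at day 0, MMP2sh1 was lower than MMP2sh2 in MT2A (log2 fold change −0.58) and in MT1E (−0.44), and at day +2 in MT1E (−0.46). In the interaction of line and day, the change of MT1E from day −2 to day 0 was higher in MMP2sh2 than in the control (0.53). The change of MT1E from day 0 to day +2 was lower than in the control both in MMP2sh1 (−0.41) and in MMP2sh2 (−0.41), and that of MT2A was lower in MMP2sh2 (−0.68). These interactions were added after seeing the data, and the planned ones, from day −2 to day +2, called no member. Each MT1E interaction call was lost with DESeq2, with all 27 libraries in 1 fit, or with both. Groups held 3 libraries each, so beyond leaving out each library in turn no test for single libraries that stand apart was made.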

How the results depend on the processing

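Scaling by the median of ratios, a stricter filter (10 counts or more in each library) and the replicate number as a block changed no call of the 3 tested members in any of the 24 comparisons. Same-numbered libraries did not deviate together (correlations −0.0248 to 0.0364), so the numbers do not pair the samples. Under the replicate block the number of members called was that of the main fit, for example 2 for MMP2sh2 against control at day 0 and 3 for the control from day −2 to day 0. With all 27 libraries in 1 fit, the number called fell to 0 for MMP2sh1 at day 0, 0 for MMP2sh2 at day +2, 0 for the change of MMP2sh1 from day 0 to day +2 and 1 for that of MMP2sh2. DESeq2 called 0 for the change of MMP2sh2 against that of the control from day −2 to day 0 and 0 for that of MMP2sh1 from day 0 to day +2. Within MMP2sh2 it did not call MT2A from day −2 to day 0, and the cause of these differences was not tested. Without a filter 1 was called for the change of each shRNA line from day −2 to day +2, and 2 for that of MMP2sh2 from day −2 to day 0.

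With each library left out in turn, the number called ranged from 0 to 2 for MMP2sh1 at day −2, 0 to 1 for MMP2sh1 at day 0, 1 to 2 for MMP2sh1 at day +2, 0 to 1 for MMP2sh2 at day −2, 1 to 2 between the shRNA lines at day +2 and 1 to 2 for MMP2sh1 from day −2 to day +2. Within the control it ranged from 2 to 3 from day −2 to day 0 and from day 0 to day +2, where MT1X was the call lost. For the interactions it ranged from 0 to 1 for both lines from day −2 to day +2, 0 to 2 for MMP2sh2 from day −2 to day 0 and 0 to 1 for MMP2sh1 from day 0 to day +2. No called value changed sign. Over all genes, the change of MMP2sh1 from day −2 to day 0 had 279 calls with edgeR and 494 with DESeq2. MT1X rests on 94 to 354 reads per library, and MT1F, MT1G and MT1M held too few reads to be tested.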
